A study of Mus musculus with 52 samples.

Results

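The cytosolic ribosomal protein genes are the nuclear genes that encode the protein parts of the ribosomes of the cytosol. Members were the mouse protein-coding genes with an Rps or Rpl symbol followed by a number, the stalk genes Rplp0, Rplp1 and Rplp2, and Rpsa, without S6 kinases and pseudogenes. They also needed a mean level of at least 5 CPM (counts scaled to the library total) in 1 of the 9 groups of tissue and arm. This gave 83 members of 55401 mouse genes, 33 with small-subunit (Rps) and 50 with large-subunit (Rpl) symbols, on 19 chromosomes, 4 of them on the X. Of 86 symbols that met the naming rule, Rpl39l, Rps27rt and Rpl10l stayed below the minimum. The member just inside it was Rps19bp1 with a highest group mean of 7.31 CPM, and the gene just outside was Rps27rt with 1.59 CPM. Rps19bp1 and Rpl7l1 met the rule by symbol, although their products are not core ribosomal proteins.

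Levels were measured by sequencing of poly(A) RNA in 52 libraries of spinal cord, cerebral cortex and skeletal muscle. Each tissue had 3 arms: mice with a human PFN1 C71G transgene that received an adeno-associated virus (AAV) carrying an artificial microRNA (amiR) directed at Atxn2, the same transgenic mice given vehicle, and wild-type FVB/NJ mice given vehicle. PFN1 encodes profilin-1, which binds actin and is altered in some inherited forms of amyotrophic lateral sclerosis, and Atxn2 encodes the RNA-binding protein ataxin-2. No arm received a control virus, and the labels do not name the promoter of the transgene. There were 6 libraries an arm, except 5 of wild-type cortex and 5 of vehicle-treated transgenic muscle, from both sexes. The mice were 36 weeks old by the labels, apart from 11 transgenic libraries from mice of 38 or 39 weeks. Nothing in the labels says whether libraries of different tissues share a mouse, and the p-values measure the spread between these libraries.

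Library totals ranged from 66.5 to 111.9 M counts, and RNA integrity numbers (RIN) from 7.1 to 8.3. Unscaled human PFN1 lay between 170 and 1610 CPM in transgenic libraries and reached at most 0.0143 CPM in wild-type libraries. For 4 cord libraries the 2 label fields disagree on the treatment. Titles were used, and the vector's WPRE element had 3190 to 6960 counts in every cord titled amiR and 0 in every other cord. It had 2100 to 5850 counts in amiR cortex, but only 1 to 5 counts in amiR muscles. The amiR cord of replicate 2 stood apart with 710 CPM over 10 markers of mature muscle fibres, against 50.9 to 79.1 CPM in the other amiR cords. Its values are given where a result rests on it.

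Each cytosolic ribosome joins a small subunit, which decodes the mRNA, to a large subunit, which links the amino acids. Their proteins are needed in near equal amounts, and the genes are known to be transcribed at high and coordinated levels in nearly all cells. Most of their mRNAs begin with a terminal oligopyrimidine (TOP) tract, a cytosine followed by a run of pyrimidines, through which the mTOR pathway and the protein LARP1 control their translation. Skeletal and heart muscle use a muscle-restricted paralog, Rpl3l, in place of much of the common Rpl3.

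RefSeq promoter entries (GRCm38.p6, 250 bases before to 50 after an annotated start) were held for 63 of the 83 members. A pyrimidine run was counted where its first cytosine lay between positions -10 and +10 on the coding strand, followed by at least 4 pyrimidines. Such a run was found in 36 of these 63 members (57.1%), against 31.5% of all 27025 genes with an entry. Runs whose first cytosine lay before -10 were not counted, even where they reached past it, as in Rpl7a. The letters CCGGAAG occurred on either strand in 25 members (39.7%), against 9.93% of all genes, and CCAAT on either strand in 20 members (31.8%), against 41.1% of all genes. The stretches from -10 to +20 are shown, read 5′ to 3′ on the coding strand, for some members described below, all with such a pyrimidine run. Rps28, Rplp0, Rpl23 and Rpl5, also described below, had an entry without such a run, as did a second entry of Rps27l and of Rpl3l. Where more than 1 run met these terms, capitals mark the one whose first cytosine lies nearest the annotated start, and a match in an annotated start is a description of letters, not a mapped 5′ end. The Rps27l start lies on chr9:66946076-66946105 (plus strand), Rpl39 on chrX:37085203-37085232 (minus), Rps12 on chr10:23787190-23787219 (minus), Rps18 on chr17:33955646-33955675 (minus), Rplp2 on chr7:141447641-141447670 (plus), Rps6 on chr4:86857348-86857377 (minus) and Rpl3l on chr17:24727816-24727845 (plus). The run in capitals is 11 bases long in Rps12 and Rps18, 10 in Rps6, 9 in Rplp2 and 5 in Rps27l, Rpl39 and Rpl3l.
Rps27l: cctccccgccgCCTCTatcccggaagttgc
Rpl39: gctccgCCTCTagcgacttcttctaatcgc
Rps12: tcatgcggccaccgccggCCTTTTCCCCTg
Rps18: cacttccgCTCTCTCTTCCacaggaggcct
Rplp2: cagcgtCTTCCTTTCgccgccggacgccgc
Rps6: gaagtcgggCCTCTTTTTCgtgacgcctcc
Rpl3l: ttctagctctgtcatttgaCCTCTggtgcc

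Together the 83 members held about 1% of the mouse counts of each library. In spinal cord their summed share was 1.13, 1.22 and 1.28% (lowest, median and highest) in transgenic amiR mice, 1.15, 1.22 and 1.335% in transgenic vehicle mice, and 0.882, 1.01 and 1.05% in wild-type mice. No transgenic cord fell within the wild-type range, while the 2 transgenic arms overlapped. In cortex the share averaged 1.12% ± 0.12 in transgenic amiR mice, 1.14% ± 0.12 in transgenic vehicle mice and 1.09% ± 0.04 in wild-type mice (SD, n = 6, 6 and 5), and the arms overlapped. In muscle it averaged 1.27% ± 0.13 in transgenic amiR mice, 1.36% ± 0.12 in transgenic vehicle mice and 1.04% ± 0.08 in wild-type mice (SD, n = 6, 5 and 6). After TMM scaling (edgeR's correction for library composition), the median member lay between -0.11 and 0.24 log2 units from the wild-type mean in amiR muscles, between -0.04 and 0.25 in vehicle-treated transgenic muscles and between -0.15 and 0.25 in wild-type muscles, so the arms overlapped.

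**Figure D1:**
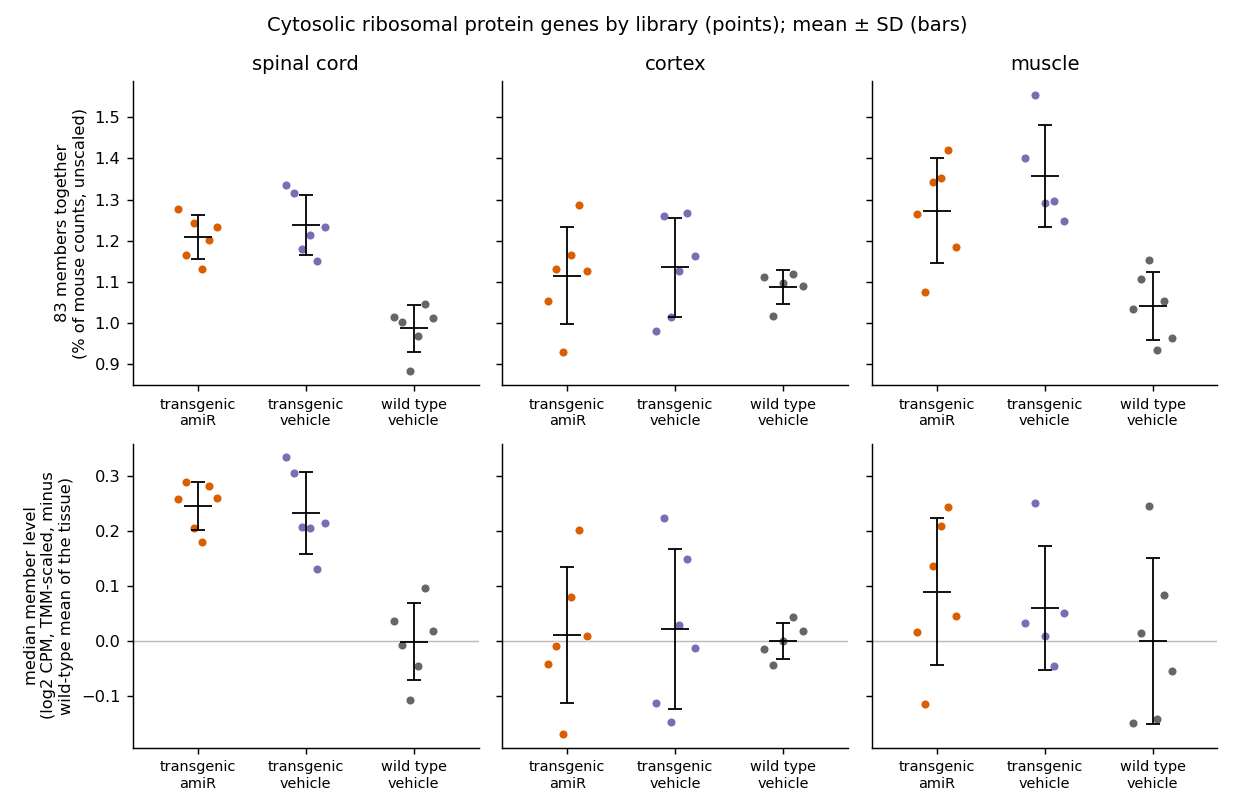
Upper row, share of mouse counts (%) held by the 83 members in each library; lower row, median member level as log2 CPM after TMM scaling minus the wild-type mean of the tissue; columns are spinal cord, cortex and muscle, points are libraries and bars mean ± SD. All 12 transgenic cords lie above the wild-type cords in both rows, whereas in muscle the transgenic vehicle libraries alone lie wholly above wild type in the upper row and the arms overlap in the lower row.

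The first comparison asked what the transgene changes in vehicle-treated mice. In spinal cord the ribosomal protein genes rose almost as a block. Of the 83 members, 74 rose and 0 fell in transgenic vehicle cords relative to wild-type cords, where 18.8% of all 20307 genes tested rose (edgeR quasi-likelihood test with arm and sex, Benjamini-Hochberg adjusted p under 0.05 over all genes tested). The median member difference was 0.22 on the log2 scale, or 16.8%, with quartiles of 0.16 and 0.32, against a median of -0.0005 and quartiles of -0.18 and 0.23 over all genes. The rise was small for each gene: called members differed by 7.68 to 54.4%, and 54 of the 83 lay within 0.1 log2 units of the member median. In 54 members the lowest transgenic vehicle library exceeded the highest wild-type library, as it did in 11.8% of all genes tested. Both subunits were represented, with 31 of 33 small-subunit members (median 0.26) and 43 of 50 large-subunit members (median 0.20) called. The 9 members that did not pass were Rpl22l1, Rpl29, Rpl36al, Rpl38, Rpl3l, Rpl7l1, Rpl8, Rps15a and Rps19bp1, a set that holds 3 paralogs of other members and the 2 genes outside the core ribosome. Under 4 other scalings 74 to 80 members rose and 0 fell. The count was 57 without the mice older than 36 weeks.

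**Figure D2:**
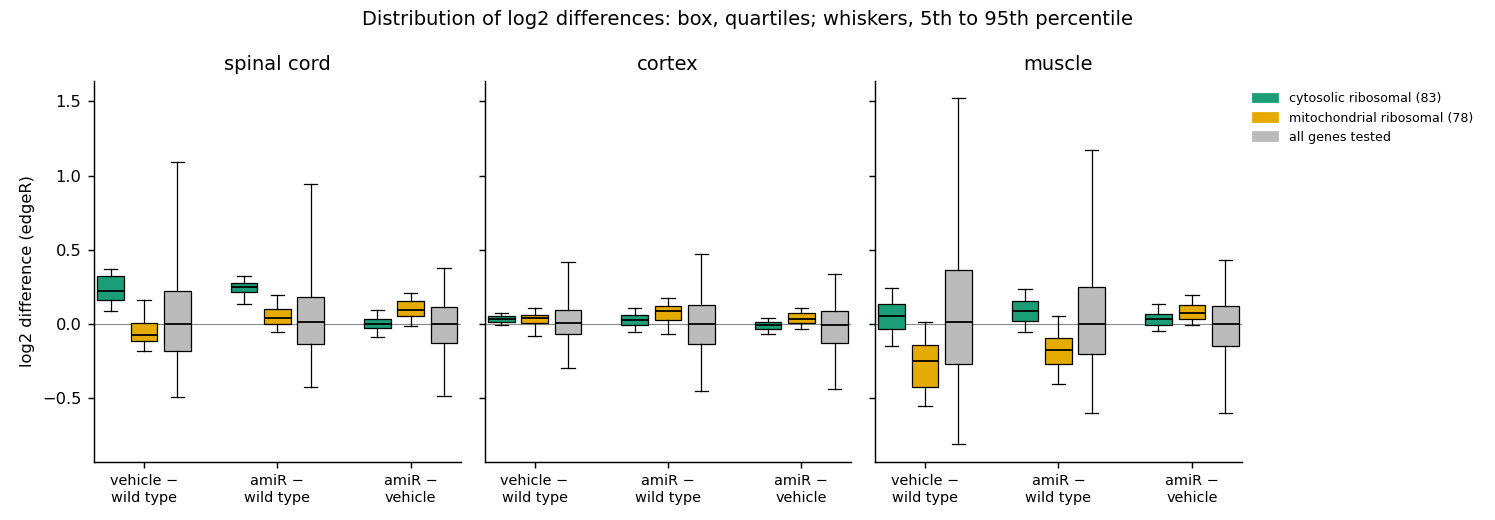
Log2 differences of the 83 cytosolic ribosomal protein genes, the 78 mitochondrial ribosomal protein genes and all genes tested in the 9 comparisons of arms; boxes span the quartiles, the line is the median and whiskers reach from the 5th to the 95th percentile. In spinal cord the cytosolic box lies wholly above 0 for both transgenic arms against wild type and around 0 for amiR against vehicle.

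The largest called rise was that of Rps27l, a paralog of the small-subunit gene Rps27. It had 12.2, 13.4 and 14.2 CPM (lowest, median and highest) in transgenic vehicle cords, against 7.24, 8.67 and 10.2 CPM in wild-type cords, a log2 difference of 0.63 (SE 0.08, adjusted p = 1.28e-05). The groups did not overlap. Rpl39, a short protein of the large subunit's exit tunnel, had 65.4, 68.5 and 76.7 CPM in transgenic vehicle cords and 40.0, 52.9 and 56.5 CPM in wild-type cords (log2 0.45, SE 0.07, adjusted p = 7.39e-05). Rps12 of the small subunit had 104.0, 111.5 and 120.4 CPM in transgenic vehicle cords, against 78.1, 81.5 and 92.9 CPM in wild-type cords (log2 0.42, SE 0.05, adjusted p = 8.04e-06). Every transgenic vehicle cord lay above every wild-type cord for these genes as well. The same held for Rps18, in the head of the small subunit, with 48.4, 51.2 and 56.1 CPM in transgenic vehicle cords and 36.6, 39.5 and 42.6 CPM in wild-type cords (log2 0.38, SE 0.04, adjusted p = 4.59e-06). It also held for Rps28, which sits where mRNA leaves the small subunit, with 58.4, 63.3 and 68.4 CPM in transgenic vehicle cords and 39.4, 50.4 and 56.3 CPM in wild-type cords (log2 0.38, SE 0.06, adjusted p = 0.000212).

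Members with well-known roles followed the same small rise. The genes of the stalk proteins, which recruit elongation factors, rose in transgenic vehicle cords relative to wild-type cords. The log2 differences were 0.37 (Rplp0), 0.17 (Rplp1) and 0.34 (Rplp2). Rplp0 had 147.5, 158.2 and 170.3 CPM in transgenic vehicle cords, against 111.0, 120.8 and 135.9 CPM in wild-type cords. Rplp1 overlapped between the arms, and its adjusted p of 0.0315 ranged from 0.0155 to 0.0837 with 1 library left out, above the threshold in 6 of 12 fits. Rpl3, with 311.7 to 344.9 CPM in transgenic vehicle cords and 280.2 to 306.1 CPM in wild-type cords, rose by 0.13 and lost its call without the transgenic vehicle cord of replicate 3 (0.11, adjusted p = 0.0508). Rpl5 and Rpl11, which carry the 5S RNA and can bind Mdm2, rose by 0.33 and 0.16. Rps6, the ribosomal target of the S6 kinases, had 254.0, 276.6 and 290.7 CPM in transgenic vehicle cords and 222.4, 240.8 and 254.0 CPM in wild-type cords, ranges that met at 254.0 CPM, with a log2 difference of 0.20 (SE 0.04, adjusted p = 0.000601). The small-subunit members Rpsa, Rps3, Rps14, Rps19, Rps25, Rps26 and Rps27a rose by 0.18 to 0.33, and among large-subunit members Rpl10 rose by 0.35, Rpl22 by 0.21 and Rpl41, the shortest protein of the ribosome, by 0.36. Rpl38, known in mouse embryos for its part in the translation of Hox mRNAs, had 69.5, 79.1 and 88.1 CPM in transgenic vehicle cords and 56.8, 72.8 and 81.0 CPM in wild-type cords, which overlapped (log2 0.15, adjusted p = 0.0943). The differences bore little relation to the genes' levels in wild-type cords (Spearman's rho -0.13 across 83 genes, which share their libraries and are not independent).

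**Figure D3:**
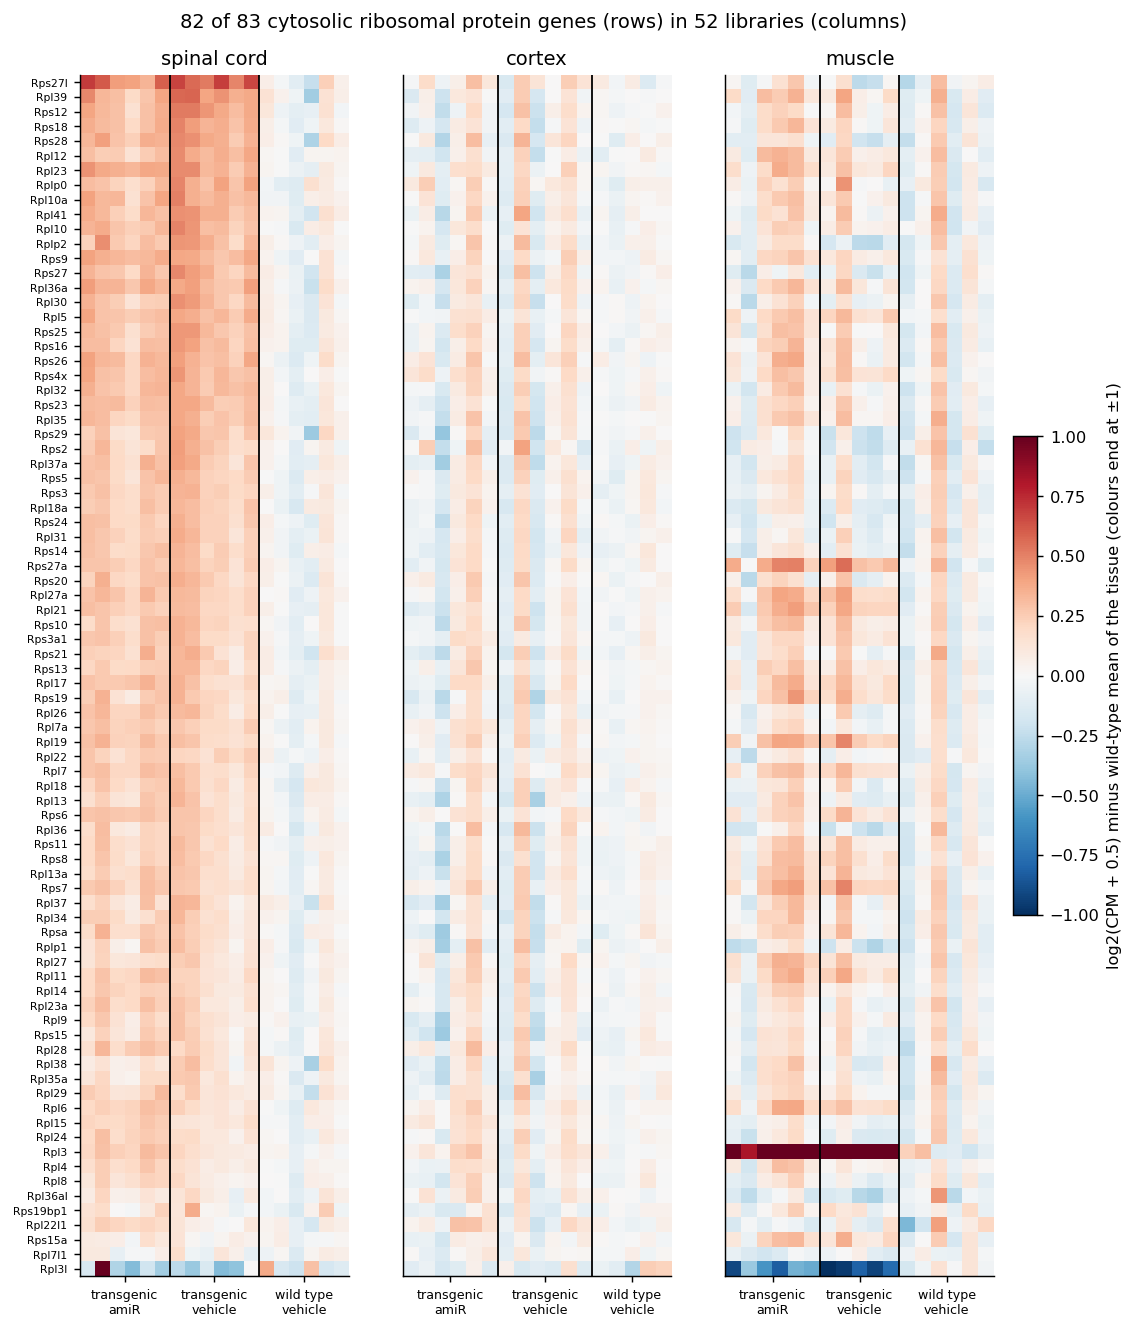
Each row is 1 of 82 members, ordered by its log2 difference between transgenic vehicle and wild-type cord, and each column is 1 of the 52 libraries; colour gives the log2 CPM minus the wild-type mean of the tissue. The transgenic cords are raised over nearly all rows, cortex shows whole columns that are high or low within an arm, and Rpl3 and Rpl3l stand out in muscle.

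Other genes of the translation machinery were counted from lists, beside 18.8% of all genes tested that rose and 17.9% that fell. Rack1 and Fau, ribosomal protein genes outside the symbol rule, rose by 0.30 and 0.28 on the log2 scale in transgenic vehicle cords relative to wild-type cords. Of 14 translation factors and other genes with TOP mRNAs, 8 rose and 0 fell (median 0.15), led by the poly(A)-binding protein gene Pabpc1 (0.69, adjusted p = 1.55e-06) and the elongation factor gene Eef1a1 (0.54, adjusted p = 2.05e-06). All 6 snoRNA host genes rose (median 0.29), among them Snhg1 by 0.55 and Gas5 by 0.28. Of 34 ribosome biogenesis genes 9 rose and 6 fell (median 0.005), of 6 chaperones and importers of ribosomal proteins 0 were called, and of 11 genes that control TOP mRNA translation 2 rose and 5 fell, including Mtor (-0.36) and Larp1 (-0.19). Among the 78 mitochondrial ribosomal protein genes 5 rose and 10 fell, with a median of -0.07.

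Cell markers moved in the same cords. Over 12 markers of microglia and macrophages, of which 11 rose, the summed level was 1224, 1283 and 1483 CPM in transgenic vehicle cords and 327.0, 354.7 and 454.7 CPM in wild-type cords. Of 9 neuron markers 8 fell, with sums of 5349 to 6635 CPM in transgenic vehicle cords against 8951 to 10510 CPM in wild-type cords, and all 6 motor neuron markers fell. Astrocyte markers gave 3 of 7 up, oligodendrocyte markers 1 of 8 down, endothelial markers 1 of 4 down, and 0 of 6 fibroblast markers were called. In bulk tissue, fewer cells of a type and less RNA per cell cannot be told apart. The part of cell composition in the rise of the ribosomal protein genes was not tested.

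The second comparison asked what the amiR changes in transgenic mice. In spinal cord 1 of 83 members, Rpl3, passed the test in transgenic amiR relative to transgenic vehicle cords, where 2.90% of all genes rose. Rpl3, which lies near the site of peptide bond formation, had 342.1, 355.6 and 369.3 CPM in transgenic amiR cords and 311.7, 319.7 and 344.9 CPM in transgenic vehicle cords, which overlapped (log2 0.13, SE 0.04, adjusted p = 0.0492). Its adjusted p exceeded 0.05 in 10 of 12 fits that left out 1 library, with a highest value of 0.117. The median member difference was 0.004, and 9 members had an unadjusted p under 0.05. Rpl22l1, the paralog of Rpl22, did not overlap, with 54.5 to 58.1 CPM in transgenic amiR cords and 48.5 to 53.4 CPM in transgenic vehicle cords (log2 0.14), and its adjusted p was 0.0662. DESeq2 called 4 members up and 1 down, where it called 10.9% of all genes in either direction.

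Against wild-type cords, transgenic amiR cords showed 75 members up and 0 down, where 14.5% of all genes rose. This comparison and the transgenic vehicle comparison share the wild-type cords. The median member difference was 0.25, or 18.8%, and all 83 members were above 0. For Rpl3l this rested on the amiR cord of replicate 2, with 1.83 CPM. The other amiR cords had 0.114 to 0.239 CPM of Rpl3l, against 0.217 to 0.574 CPM in wild-type cords. In 67 members every transgenic amiR cord lay above every wild-type cord, as it did in 7.12% of all genes tested. Rps27l had 11.0, 12.4 and 14.2 CPM in transgenic amiR cords, against 7.24, 8.67 and 10.2 CPM in wild-type cords (log2 0.54, SE 0.08, adjusted p = 0.000112). Rpl23, a large-subunit protein, had 179.0, 185.2 and 193.9 CPM in transgenic amiR cords and 133.9, 143.3 and 151.9 CPM in wild-type cords (log2 0.38, SE 0.04, adjusted p = 7.98e-06). Neither gene overlapped between these arms. Rps9, Rpl36a and Rps28 rose by 0.35, 0.35 and 0.33, without overlap between the arms. The members that did not pass were Rpl35a, Rpl36al, Rpl37, Rpl38, Rpl3l, Rpl7l1, Rps15a and Rps19bp1. The lists were also counted in amiR cords relative to vehicle-treated transgenic cords, where 2.90% of all genes rose. There 3 of 14 TOP genes, 2 of 34 biogenesis genes, 1 of 6 chaperones and 6 of 78 mitochondrial ribosomal genes were up. Mtor was up by 0.40, and 0 snoRNA host genes were called.

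In cortex 0 of 83 members were called in any comparison of arms. The shares of all genes called in either direction were 0.0247% for transgenic vehicle against wild type, 0.0197% for transgenic amiR against transgenic vehicle and 1.20% for transgenic amiR against wild type. The median member differences were 0.04, -0.01 and 0.03 in the same order, and 0, 0 and 3 members had an unadjusted p under 0.05. DESeq2 called 0, 0 and 1 members. Rps27l had a mean of 6.54 CPM ± 0.73 in transgenic vehicle cortex and 6.04 CPM ± 0.41 in wild-type cortex (SD, n = 6 and 5), and Rpl39 had 58.3 CPM ± 6.6 in transgenic vehicle cortex and 57.4 CPM ± 0.6 in wild-type cortex. Rpl10a, Rpl11 and Rpl13a, named for the smallest adjusted p in a comparison where all were near 1, had log2 differences of 0.04, 0.05 and 0.05 in transgenic vehicle relative to wild-type cortex. For transgenic amiR against transgenic vehicle cortex the members with the smallest adjusted p were Rpl15 (0.08), Rpl22l1 (0.11) and Rpl3 (0.07). For transgenic amiR against wild-type cortex the leading members were Rpl15 (0.12), Rpl3 (0.14) and Rpl7 (0.13), with a smallest adjusted p of 0.150. Within arms the cortex members moved together: across 17 libraries the mean pairwise correlation of their deviations from the arm means was 0.84, against 0.26 among mitochondrial ribosomal genes and 0.002 among all genes. In spinal cord the member value was 0.67, against 0.58 among mitochondrial ribosomal genes, and in muscle it was 0.83, against 0.66.

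In muscle, after TMM scaling, 1 paralog pair changed strongly and most other members were not called. Rpl3, on chr15:80077791-80091868 (minus strand, GRCm38), encodes the common form of the protein, and Rpl3l, on chr17:24727820-24736143 (plus strand), the muscle form. Rpl3 had 108.9, 107.0, 95.7, 95.7 and 105.8 CPM in the 5 transgenic vehicle muscles, against 26.2, 28.0 and 37.1 CPM (lowest, median and highest of 6) in wild-type muscles. It rose by 1.76 on the log2 scale, or 238.5% (SE 0.14, adjusted p = 1.56e-07). Rpl3l had 137.5, 175.2, 194.9, 179.8 and 200.1 CPM in transgenic vehicle muscles and 301.5, 335.6 and 376.9 CPM in wild-type muscles, and fell by 0.96 on the log2 scale (SE 0.10, adjusted p = 1.59e-06). Neither gene overlapped between the arms. Both calls held with each library left out, Rpl3 between 1.72 and 1.83 and Rpl3l between -0.998 and -0.882.

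As a share of the counts of both genes, Rpl3l made up 55.8, 62.1, 67.1, 65.3 and 65.4% in transgenic vehicle muscles, against 89.5, 92.3 and 93.4% in wild-type muscles. The difference was -28.7 percentage points (two-sided exact permutation p = 0.00216, the smallest that 5 against 6 libraries allow, adjusted p = 0.0139 over 45 paralog tests). In transgenic amiR muscles the share was 65.0, 72.3 and 83.2%, which was 19.2 points below wild type (exact permutation p = 0.00216, adjusted p = 0.0139). It was 9.45 points above transgenic vehicle muscles (exact permutation p = 0.0195), a difference that did not pass after adjustment (p = 0.0584) and that ranged from 7.33 to 11.0 points with 1 library left out. The amiR range began inside the vehicle range and ended below the wild-type range. The transcripts are of near equal length, 1351 and 1375 bases by the annotation's median, so the count share is close to a share per length. Pseudogene copies held 27.4% of the summed muscle counts of Rpl3 and its copies. They were left out of this share, and the share with them added was not computed.

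**Figure D4:**
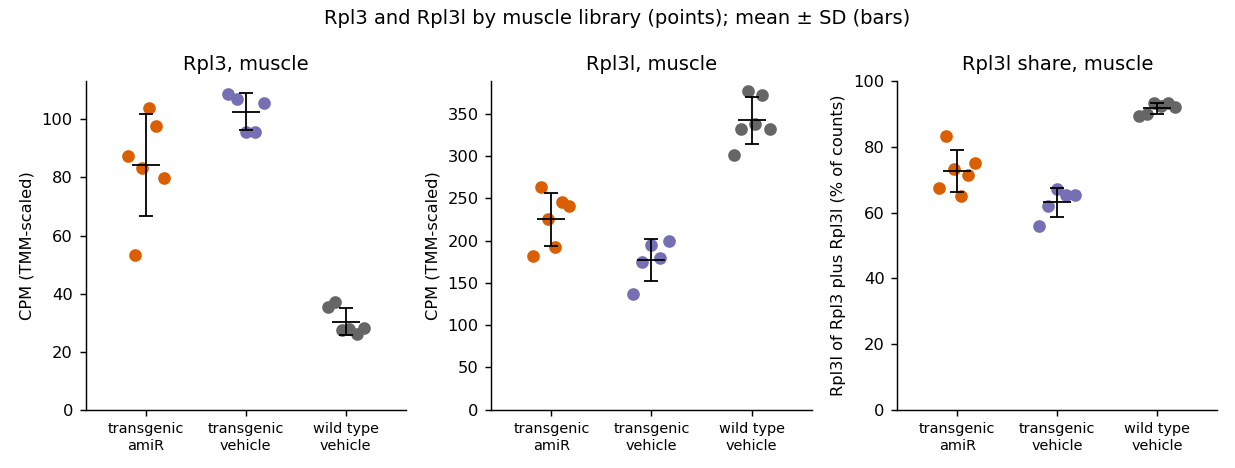
TMM-scaled CPM of Rpl3 and of Rpl3l and the share of Rpl3l in the counts of both (%), in each muscle library (points) with the mean ± SD of each arm (bars). Rpl3 lies between 95.7 and 108.9 CPM in transgenic vehicle muscles and at or below 37.1 CPM in wild-type muscles, and amiR muscles spread from 53.3 to 103.9 CPM.

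For the amiR against vehicle in transgenic muscle 0 of 83 members passed, where 1.03% of all genes were called in either direction, and 2 members had an unadjusted p under 0.05. The amiR muscles held 1 to 5 counts of the vector's WPRE element. DESeq2 called 1 member up. Rpl3l had 181.8, 233.6 and 263.3 CPM in transgenic amiR muscles, against 137.5 to 200.1 CPM in transgenic vehicle muscles, a log2 difference of 0.36 (SE 0.10, adjusted p = 0.0857). Rpl3 had 53.3, 85.4 and 103.9 CPM in transgenic amiR muscles and 95.7 to 108.9 CPM in transgenic vehicle muscles (log2 -0.29, SE 0.14, adjusted p = 0.270). Both genes overlapped between these arms. The amiR muscle of replicate 2 had the lowest Rpl3 level and the highest Rpl3l share, and also the lowest sum over 8 markers of denervated fibres, 264.8 CPM, against 671 to 1044 CPM in the other amiR muscles. In the amiR muscle of replicate 4 that sum was 1044 CPM, Rpl3 103.9 CPM and the Rpl3l share 65.0%. Replicates 2 and 4 hold the lowest and highest marker sum of the amiR muscles. A relation over all amiR muscles was not tested. The stalk member Rplp2 was 0.22 higher on the log2 scale in amiR than in transgenic vehicle muscles, with an adjusted p of 0.178.

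Among the other members of muscle the changes were fewer than in cord. In transgenic vehicle relative to wild-type muscles 11 members rose, including Rpl3, and 1 fell, Rpl3l, where 25.5% of all 16949 genes tested rose and 24.7% fell. The median member difference was 0.06, and apart from Rpl3 and Rpl3l only Rpl19 did not overlap between the arms, where 28.9% of all genes did not overlap in either direction. Rps27a, which encodes ubiquitin fused to a small-subunit protein, had 171.4, 190.0, 157.8, 154.1 and 161.6 CPM in transgenic vehicle muscles and 112.9, 126.0 and 162.6 CPM in wild-type muscles (log2 0.37, SE 0.10, adjusted p = 0.00442). Rpl19 of the large subunit had 180.4, 209.7, 178.1, 170.2 and 174.3 CPM in transgenic vehicle muscles and 134.8, 150.6 and 167.6 CPM in wild-type muscles (log2 0.29, SE 0.08, adjusted p = 0.00809). For Rps27a the highest wild-type library lay above the lower transgenic ones. Rps7 rose by 0.29, Rpl21 by 0.25, Rpl27a by 0.25 and Rpl5 by 0.22, and Rpl7, Rpl11, Rps4x and Rps6 by 0.18 to 0.21. Of these, Rps7 lost its call without the transgenic vehicle muscle of replicate 2 (0.22, adjusted p = 0.0518), and Rpl21, Rpl7, Rpl11, Rps4x and Rps6 lost theirs in at least 4 of 11 such fits.

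The muscle counts depended on single libraries and on the scaling. Without the transgenic vehicle muscle of replicate 2, 6 members were called in transgenic vehicle against wild-type muscles, and without the wild-type muscle of replicate 6, 7. Without the wild-type muscle of replicate 3, which had the lowest RIN, 7.1, 23 members were called. Without scaling beyond total counts 77 members rose and 1 fell in transgenic vehicle relative to wild-type muscles, while the median of all genes shifted by 0.35 and that of the members was 0.39. Transgenic amiR muscles had 9 members up, among them Rpl3 by 1.47 (SE 0.13, adjusted p = 1.19e-06), Rps27a by 0.33, Rpl19 by 0.26, Rpl21 by 0.24 and Rps7 by 0.24, and Rpl3l down by 0.60, relative to wild-type muscles, where 17.4% of all genes rose and 17.6% fell. This comparison shares the wild-type muscles with the preceding one. The other 4 that rose were Rpl27a, Rpl5, Rpl6 and Rpl7, and the count called was 28 without the wild-type muscle of replicate 3, 27 without the amiR muscle of replicate 2, and 4 without any of the amiR muscles of replicates 3, 4 and 5 or the wild-type muscles of replicates 1, 4 and 6. It was 6 without the amiR muscle of replicate 1 or 6.

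The lists were counted with TMM scaling alone, where 25.5% of all genes tested rose and 24.7% fell in transgenic vehicle relative to wild-type muscles. Without scaling the median of all genes in this comparison was 0.35, and the lists were not counted there. Beside these members, 5 of 14 TOP genes rose and 2 fell in transgenic vehicle relative to wild-type muscles, led by Eef1a1 with 2.01 (adjusted p = 1.35e-07), while Pabpc1 rose by 0.31 and Eef1b2 by 0.28. Of 34 biogenesis genes 15 rose and 1 fell (median 0.15), among them the nucleolar methylase gene Fbl by 0.52. Rack1 and Fau were not called. Mtor rose by 0.53 and Larp1 fell by 0.36, in a list of which 3 of 11 rose and 6 fell. Of 6 snoRNA host genes 2 rose and 1 fell, and of 6 chaperones 2 fell. After TMM scaling the mitochondrial ribosomal protein genes moved in the other direction, with 48 of 78 down and 0 up (median -0.25). They were led by Mrpl42 (-0.82), Mrps24 (-0.71), Mrps15 (-0.49) and Mrpl51 (-0.50). Whether this direction holds without scaling was not tested.

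Muscle cell markers moved with the same arms. All 8 denervation markers rose in transgenic vehicle relative to wild-type muscles, with sums of 709.7, 927.1 and 1105 CPM in transgenic vehicle and 49.9 to 71.1 CPM in wild-type muscles. Of 10 markers of mature fibres 2 rose and 7 fell. All 6 fibroblast markers rose (1191 to 2536 CPM in transgenic vehicle and 284.5 to 975.1 CPM in wild-type muscles), as did 11 of 12 macrophage and all 4 satellite cell markers, and 1 of 4 endothelial markers fell. Their part in the change of Rpl3 and Rpl3l was not tested.

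Other paralog pairs were compared as shares of their summed counts, not corrected for length. Of 45 tests over 3 tissues and the pairs with enough counts, 14 passed after adjustment. Both counts include the muscle tests of Rpl3l given above, which passed for each transgenic arm against wild type. In spinal cord Rps27l made up 11.2% of the counts of Rps27 and Rps27l in transgenic vehicle mice and 9.38% in wild-type mice, a difference of 1.86 points (exact permutation p = 0.00216, adjusted p = 0.0139). Rpl36al made up 42.7% of its pair with Rpl36a in transgenic vehicle cords and 47.1% in wild-type cords (exact permutation p = 0.00216, adjusted p = 0.0139), and in muscle 53.9% in transgenic vehicle and 59.4% in wild-type mice (exact permutation p = 0.00433, adjusted p = 0.0244). The share of Rpl22l1 with Rpl22 was 32.9% in transgenic vehicle cords, against 35.3% in wild-type cords (exact permutation p = 0.00649, adjusted p = 0.0292). It was 34.9% in transgenic amiR cords, above that of transgenic vehicle cords (exact permutation p = 0.00866, adjusted p = 0.0300). Rpl7l1 made up 13.4% of its pair with Rpl7 in transgenic vehicle cords and 14.9% in wild-type cords (exact permutation p = 0.00216, adjusted p = 0.0139). In cortex 0 of these pairs passed. Rpl3l was at most 0.50% of its pair in any cord, in the amiR cord of replicate 2, and at most 0.10% in any cortex.

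Whether the transgene effect differs between tissues was tested as an interaction in a joint model of 22316 genes. Relative to the muscle effect, the cord effect was higher for 19 members and lower for 1, where 14.2% of all genes had a higher and 16.0% a lower cord effect. The member lower in this contrast was Rpl3 (-1.66, SE 0.13, adjusted p = 2.24e-14), and among the higher were Rps27l (0.66, SE 0.13, adjusted p = 5.45e-05), Rplp2 (0.49), Rps28 (0.43) and Rps2 (0.40). Of the 19, 11 were small-subunit and 8 large-subunit members. This direction depended on the scaling: without scaling beyond total counts 2 members were higher and 7 lower, and the median of all genes moved to -0.21. The count was 37 without the transgenic vehicle muscle of replicate 2, 10 to 12 without the transgenic vehicle muscle of replicate 1, 3 or 4, the wild-type muscle of replicate 3 or the wild-type cord of replicate 3. Across the 83 members the log2 differences of cord and muscle had a Spearman's rho of 0.07, a description over genes of the same libraries.

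**Figure D5:**
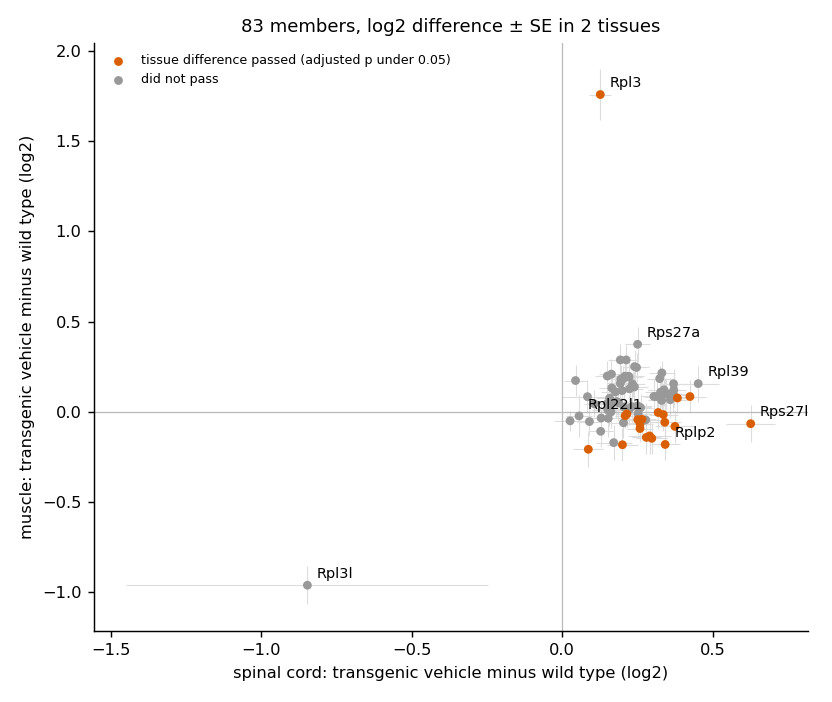
Log2 difference between transgenic vehicle and wild-type mice in spinal cord (horizontal) and muscle (vertical) for the 83 members, with SE bars; orange marks the 20 members whose difference between tissues passed the interaction test after TMM scaling (without scaling, 9 passed, 7 of them lower in cord). Most members lie right of 0 and near 0 vertically, Rpl3 lies far above and Rpl3l far below them.

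Relative to the cortex effect, the cord effect was higher for 11 members and lower for 0, where 5.23% of all genes had a higher cord effect. These were Rps27l (0.49), Rpl39 (0.41), Rps18 (0.37), Rps12 (0.37), Rpl12 (0.36), Rpl10 (0.32), Rpl10a (0.31), Rpl23 (0.29), Rpl5 (0.29), Rps9 (0.26) and Rps4x (0.25). Of them Rps27l, Rps18, Rpl12 and Rpl5 passed in every fit that left out 1 library, while Rps4x and Rps9 passed in 7 of 23. The count ranged from 4, without the transgenic vehicle cortex of replicate 3, to 16. For the difference of the amiR effect between cord and muscle 0 members passed, where 1.99% of all genes were called in either direction, 2 had an unadjusted p under 0.05, and DESeq2 called 1.

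Levels were also compared between wild-type tissues. On the scale of the joint model Rps27l had 52.2, 65.4 and 81.5 CPM in wild-type muscle, against 5.54, 6.70 and 7.82 CPM in wild-type cord and 4.35, 4.78 and 5.17 CPM in wild-type cortex. No 2 tissues overlapped, and the muscle minus cord difference was 3.31 on the log2 scale (SE 0.09, adjusted p = 2.88e-33). Rpl3 had the opposite order, with 44.2, 47.3 and 64.7 CPM in wild-type muscle, 214.1, 230.3 and 236.2 CPM in wild-type cord and 218.3, 226.0 and 235.4 CPM in wild-type cortex. Cord and cortex overlapped, and the muscle minus cord difference was -2.15 (SE 0.09). Rpl3l had 499.0, 580.1 and 640.5 CPM in wild-type muscle and at most 0.442 CPM in wild-type cord. After TMM scaling 82 members were higher and 1 lower in wild-type muscle than in wild-type cord (37.0% and 48.7% of all genes), with a median of 1.32. Without scaling 35 were higher and 27 lower with a member median of 0.06, while the median of all genes, -0.34 after TMM scaling, became -1.59, so this direction holds only relative to the other genes of a library. Rpl3, Rpl3l, Rps27l, Rplp0, Rplp2 and Rps2 kept their direction there.

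In wild-type cord relative to wild-type cortex 5 members were higher and 42 lower (29.6% and 30.8% of all genes), with a median of -0.18. The higher ones were Rps27l (0.46), Rps6 (0.31), Rpl36al (0.21), Rpl22 (0.16) and Rpl7 (0.16). Rps6 had 169.9, 186.0 and 195.2 CPM in wild-type cord and 143.4, 147.6 and 157.6 CPM in wild-type cortex, without overlap. The largest falls were Rps2 (-0.98), Rps15 (-0.57), Rpl12 (-0.54), Rpl41 (-0.54) and Rpl29 (-0.53). Rps2 had 56.1, 61.9 and 64.9 CPM in wild-type cord and 114.6, 119.3 and 124.6 CPM in wild-type cortex.

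Ribosomal protein genes have many processed copies, and the counting could split reads between them. Rows of pseudogenes by symbol were present for 60 members, and in 4 members they held over 10% of the summed counts of gene and copies in a tissue. These were Rps2 (64.3 to 65.1% over the tissues), Rpl34 (45.83 to 46.15%), Rpl35a (28.6 to 32.0%) and Rpl3 (27.4 to 27.9%). Their levels are uncertain to those degrees. With the copies added, Rpl3 still rose by 1.75 in transgenic vehicle relative to wild-type muscles (adjusted p = 1.57e-07). In transgenic vehicle relative to wild-type cords, Rps2, Rpl34 and Rpl3 remained called with the copies added (0.24, 0.21 and 0.12, adjusted p = 0.000447, 0.00308 and 0.0187), and Rpl35a, at 0.15 with an adjusted p of 0.0307 without them, did not pass (-0.01, adjusted p = 0.962).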

How the data were processed

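Poly(A) RNA of 52 libraries was sequenced as paired ends on a NovaSeq instrument after Kapa mRNA HyperPrep library preparation, per the labels' protocols. The authors deposited 1 table of expected counts per gene (RSEM's estimated counts, which share reads among genes they could come from), and 7.0% of its values were not whole. The submitters' processing notes name bcl2fastq 2.20, STAR 2.7.2d, RSEM 1.3.2, DESeq2 1.34.0 and the builds GRCm38 and GRCh38. The annotation release was not given in the sources used here. Symbols came from GENCODE M21, which matched 55141 of 55401 mouse IDs.

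Values were rounded to whole counts. Rows outside mouse genes took at most 0.167% of a library and entered no library size. Each tissue was fitted with edgeR 4.0.16 in R 4.3.3 (filterByExpr, TMM factors, quasi-likelihood test, arm and sex as terms), and differences between tissues with a joint model of 9 groups and sex. P-values were Benjamini-Hochberg adjusted over all genes tested, with a threshold of 0.05. CPM values are TMM-scaled within a tissue unless another scale is named. Paralog shares were compared by two-sided exact permutation over libraries. The fit was tested on simulated data. Alternatives covered scaling, the filter on low counts, DESeq2 1.42.0, covariates, older mice, label conflicts and libraries left out. Upper-quartile scaling and the addition of pseudogene rows were chosen after seeing the data. The members and gene lists were chosen with earlier results of these data known. Members named with values were the called members with the largest changes in each comparison (where none was called, those with the smallest adjusted p), a set picked by role, and paralog pairs. Of a list, up to 4 called genes were named, by smallest adjusted p. Some items that the rule would name are not reported here. Genes named outside this rule were chosen after their values were seen. Counts limit precision for low genes such as Rpl3l in cord and cortex.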

Additional observations from a re-analysis of the deposited data

Results flagged for a closer look

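Of 396 sets of 5 or 6 libraries checked for a library far from the others, 18 had one, or 4.545%, and chance flags about 1 in 20 groups. Each value that follows is the gap to the nearest library as a share of the group's range. The transgenic amiR cord of replicate 2 was highest for Rpl3l (0.927) and Rplp2 (0.648), and it also had the high muscle-fibre marker sum of 710 CPM. The transgenic vehicle cord of replicate 1 was highest for Rpl10a (0.71), and the wild-type cord of replicate 3 was lowest for Rpl12 (0.694). The wild-type cortex of replicate 2 was lowest in the summed share of the members (0.722). The transgenic amiR muscle of replicate 2 was lowest for Rpl21 (0.677), and the wild-type muscle of replicate 3 was highest for Rpl36al (0.706). The transgenic vehicle muscle of replicate 2 was highest for Rpl10 (0.833), Rpl13a (0.792), Rpl19 (0.742), Rpl21 (0.886), Rpl41 (0.758), Rplp0 (0.855), Rplp1 (0.725), Rps14 (0.858), Rps15 (0.71), Rps19 (0.735) and Rps7 (0.732).

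The transgene effect differed between cord and muscle for 20 members by the interaction test. The cord minus muscle difference was -1.66 for Rpl3, 0.66 for Rps27l, 0.49 for Rplp2, 0.43 for Rps28, 0.40 for Rps2, 0.37 for Rps27, 0.31 for Rps12, 0.28 for Rps18, 0.27 for Rpl36al, 0.26 for Rps14 and 0.20 for Rpl22. It differed between cord and cortex for 11 members, with a cord minus cortex difference of 0.49 for Rps27l, 0.41 for Rpl39, 0.37 for Rps12, 0.37 for Rps18, 0.36 for Rpl12, 0.32 for Rpl10, 0.31 for Rpl10a, 0.29 for Rpl23, 0.29 for Rpl5, 0.26 for Rps9 and 0.25 for Rps4x.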

How the results depend on the processing

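In cord, the count of members called ranged over all alternatives from 57 to 80 for transgenic vehicle against wild type and from 68 to 77 for transgenic amiR against wild type, and with 1 library left out from 66 to 76 and from 72 to 77. For transgenic amiR against transgenic vehicle cords it was 0 without scaling, with upper-quartile scaling, without a filter, without older mice, without the 4 libraries of conflicting labels and with arms by library name, 5 with DESeq2, and 0 to 2 with 1 library left out. In cortex it was 1 with DESeq2 for transgenic amiR against wild type, and 0 to 0 in each comparison with 1 library left out. In muscle, transgenic vehicle against wild type gave 78 without scaling, 26 with RIN as a covariate and 6 to 23 with 1 library left out. Transgenic amiR against transgenic vehicle gave 1 with DESeq2, 1 with RIN and 0 to 0 with 1 library left out. Transgenic amiR against wild type gave 72 without scaling, 32 with RIN, 23 without older mice and 4 to 28 with 1 library left out. The cord minus muscle transgene effect gave 9 without scaling, 9 without a filter and 10 to 37 with 1 library left out, and the cord minus cortex effect 5 with DESeq2's size factors, 18 without scaling, 6 without a filter, 7 with DESeq2 and 4 to 16 with 1 library left out. The treatment effect gave 1 with DESeq2 and 0 to 1 with 1 library left out, wild-type muscle against cord 83 to 83, and wild-type cord against cortex 43 to 50. The Rpl3l share in muscle ranged from -29.6 to -26.8 points for transgenic vehicle against wild type, from 7.33 to 11.0 for transgenic amiR against transgenic vehicle and from -21.3 to -17.7 for transgenic amiR against wild type. The cause of these changes was not tested.

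Without mitochondrial-genome genes and the 20 most counted genes, the summed share averaged 1.472, 1.499 and 1.205% in transgenic amiR, transgenic vehicle and wild-type cords, 1.336, 1.365 and 1.326% in cortex, and 2.111, 2.149 and 1.827% in muscle. With a replicate block, the count of members called was 75 and 76 for the 2 transgenic cord arms against wild type, 0 for transgenic amiR against transgenic vehicle cords, 0 in cortex, and in muscle 8 for transgenic vehicle and 5 for transgenic amiR against wild type. Like-numbered libraries correlated between -0.42 and 0.63 over 50 pairs, 28 pairs passed 0.1 and 20 correlated best with their own number. In no comparison did every pair pass 0.1, so the numbers were not taken as pairs. This rule cannot show that like-numbered libraries are unrelated. Nearest to passing came transgenic amiR against transgenic vehicle cortex, where 5 of 6 pairs lay between 0.2 and 0.63 and correlated best with their own number and the sixth was at 0.03.

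Without scaling, 29 values of named members changed sign. In transgenic vehicle against wild-type muscle these became 0.304 (Rpl15), 0.315 (Rpl22), 0.319 (Rpl22l1), 0.303 (Rpl38), 0.284 (Rpl7l1), 0.295 (Rps14), 0.195 (Rps2), 0.28 (Rps27), 0.273 (Rps27l) and 0.257 (Rps28), in transgenic amiR against wild-type muscle 0.193 (Rpl22), and in the cord minus muscle effect -0.005 (Rpl22). In wild-type muscle against cord they became -0.416 (Rpl11), -0.536 (Rpl13a), -0.428 (Rpl19), -0.497 (Rpl21), -0.185 (Rpl22), -0.543 (Rpl22l1), -0.325 (Rpl36a), -0.503 (Rpl38), -0.276 (Rpl7l1), -0.014 (Rplp1), -0.013 (Rps15), -0.33 (Rps19), -0.448 (Rps27a), -0.132 (Rps3), -0.056 (Rps4x), -0.542 (Rps6) and -0.225 (Rps7).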

Other observations

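The mitochondrial ribosomal protein genes, which serve the separate ribosomes of mitochondria, were counted with TMM scaling alone. In transgenic amiR relative to wild-type muscles 0 were up and 36 of 78 down (median -0.17), where 17.4% of all genes rose and 17.6% fell. In transgenic amiR relative to wild-type cords 9 were up and 0 down, where 14.5% of all genes rose. The cord minus muscle transgene effect was higher for 30 and lower for 1 of them, where 14.2% of all genes had a higher and 16.0% a lower cord effect. In wild-type muscle 77 of 78 were higher than in wild-type cord, where 37.0% of all genes were higher. Without scaling the median of all genes between these 2 tissues moved from -0.34 to -1.59, and the mitochondrial ribosomal protein genes were not counted there.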
